A study of Mus musculus with 8 samples.

Results

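The genes that make, import, store and export cholesterol were compared in the kidneys of mice with and without CTRP1, a secreted protein of the C1q/TNF family encoded by C1qtnf1. They were the rows of the deposited table that carried 1 of 32 gene names, out of 35275 genes, and all 32 were found. By role they were 4 regulators of synthesis, 17 enzymes of synthesis, 6 genes of uptake, transport and storage, and 5 genes of efflux and oxysterol breakdown. The deposited table gives 1 library per mouse, as FPKM, a level scaled for gene length and sequencing depth.

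The 8 libraries were each made from the whole left kidney of a different mouse, all of them male, 40 weeks old and of C57BL/6J background. KO mice (n = 4) were homozygous Ctrp1-/-, with a germline deletion made in 129S5 embryonic stem cells and backcrossed. WT mice (n = 4) were wild-type littermates. Every mouse of both groups had been on a high-fat diet (60% of calories) from the age of 6 weeks, so no mouse on a normal diet entered the comparison.

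Cells make cholesterol from acetyl-CoA through mevalonate and squalene. When sterols in the endoplasmic reticulum run low, the carrier SCAP takes the transcription factor SREBP2 to the Golgi, where it is cut free to switch on synthesis and uptake genes. The INSIG proteins hold SCAP back when sterols are plentiful. Surplus cholesterol is esterified, oxidised to oxysterols that activate LXR receptors, or exported by ABC transporters to apolipoproteins. The kidney makes cholesterol itself and also takes it up from lipoproteins.

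C1qtnf1 fell from 5.42 ± 0.141 FPKM in WT to 0.61 ± 0.23 in KO (mean ± SD), and the highest KO mouse, at 0.883, lay below the lowest WT mouse, at 5.27. Library totals worked out from the FPKM steps were 17884140 to 20344859 reads. Among the cholesterol genes the fewest reads were 127 (Pmvk in KO replicate 2), where counting error alone is 8.87% (1 SD), and the most were 11957 (Apoe in WT replicate 1). None of the 32 genes lies on chromosome 11, which carries C1qtnf1. The 7 proximal tubule markers of the labelled tissue summed to 4210 to 4990 FPKM in WT and 3780 to 4730 in KO, mostly from Slc34a1. Of these 7, 0 passed the threshold and 6 had lower means in KO on the log2 scale (median -0.25). Deposited values did not overlap for 3 lower and 1 higher, beside 5.3% of all genes tested (2.29% higher and 3.01% lower). Relative to WT on the log2 scale, the mean of the 7 was -0.49 in KO replicate 2. It was -0.09, -0.05 and -0.08 in KO replicates 1, 3 and 4, and -0.14 to 0.11 in the WT mice. The 3 principal cell markers summed to 239 to 344 FPKM in WT and 309 to 457 in KO, with 0 past the threshold. Their log2 fold changes were 0.63 for Aqp2 (limma adjusted p = 0.57), 0.38 for Fxyd4 and -0.03 for Aqp3. Of 7 markers of the adrenal cortex, a neighbouring gland rich in cholesterol genes, Cyp11b2 was at 0 in every library, and the list summed to 0.842 to 1.22 FPKM in WT and 0.601 to 0.937 in KO. Sums of a further pair of marker lists did not overlap between groups. The 5 urothelium markers summed to 3 to 7.82 FPKM in WT and 11.5 to 27.3 in KO, with 0 of the 4 tested past the threshold. The 7 immediate early and heat shock genes summed to 36.8 to 52 and 67.5 to 122, with 0 of the 5 tested past it. The part of any of these lists in the cholesterol gene values was not tested.

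KO replicate 2 stood apart from the other libraries along gene length. In that mouse the genes of up to 1850 bases, the shortest of 4 equal bins of the genes tested, had a median 0.35 above the WT mean on the log2 scale, and the longest bin a median of -0.33. In the other 7 libraries these medians lay between -0.06 and 0.04. Over all genes tested, Spearman's rho between length and the difference of KO replicate 2 from the WT mean was -0.59, and over the 32 cholesterol genes it was -0.47 (descriptions across genes of 1 library). In the other 7 libraries this rho ran from -0.16 to 0.21 over all genes tested and from -0.30 to 0.27 over the 32. After scaling between libraries, 8 cholesterol genes were highest of all in KO replicate 2, with a median length of 2167 bases, and 10 were lowest in it, with a median length of 4111 bases. Over all genes tested the shares were 32.1% highest and 34.4% lowest in that mouse, so these counts are no higher than the background. Lengths here are those recovered from the FPKM steps, which can be shorter than the annotated exons. Array weights gave this library 0.1, against 0.637 to 2.31 for the others. The log2 fold changes of the 32 cholesterol genes are plotted with and without KO replicate 2. In the text those of some cholesterol genes are given only with that mouse included. So are the test results of the marker lists and of the other pathway genes, and that mouse may move them.

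**Figure D1:**
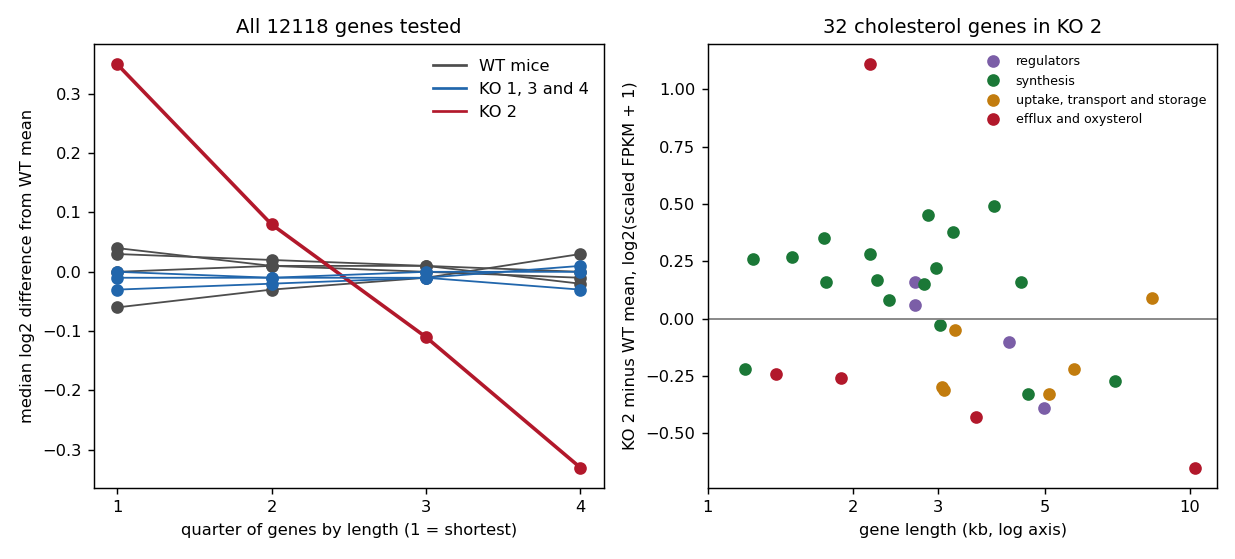
Left, the median difference from the WT mean, as log2(scaled FPKM + 1), in 4 equal bins of the genes tested by length, with 1 line per library. Right, the difference of KO replicate 2 from the WT mean for each of the 32 cholesterol genes against gene length in kilobases (log axis). The line of KO replicate 2 runs from 0.35 to -0.33 while the other 7 stay between -0.06 and 0.04, and in the right panel Cyp7b1 is the highest point and Abca1 the lowest.

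No cholesterol gene passed the test between KO and WT. Tested with limma over all genes, 0 of 32 had an adjusted p under 0.05, beside 0.0413% of all genes tested (0.0165% higher and 0.0248% lower in KO), and the lowest adjusted p among the 32 was 0.80. At an unadjusted p under 0.05 there were 4, Mvd and Sqle with higher and Stard4 and Apoe with lower means in KO, beside 5.95% of all genes tested (3.48% higher and 2.47% lower). This count was 1 without WT replicate 1, WT replicate 4, KO replicate 1 or KO replicate 4, 2 without WT replicate 2 or KO replicate 3, and 5 without KO replicate 2. It was also 2 without scaling between libraries and with a correction for gene length. With array weights Mvd, Sqle and Apoe stayed under 0.05, and Idi1, Scap and Npc2 fell under it too. Stard4 did not stay under it there (limma unadjusted p = 0.0606). All 32 exceeded the filter of a mean of 1 FPKM. The 95% interval of the fold change lay within 2-fold either way for all 32, and within 1.5-fold for 30, on the log2(scaled FPKM + 1) scale. The exceptions were Apoe and Cyp7b1. A p that misses the threshold does not show that levels were equal, and in whole kidney fewer cells of a type and less RNA per cell cannot be told apart.

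**Figure D2:**
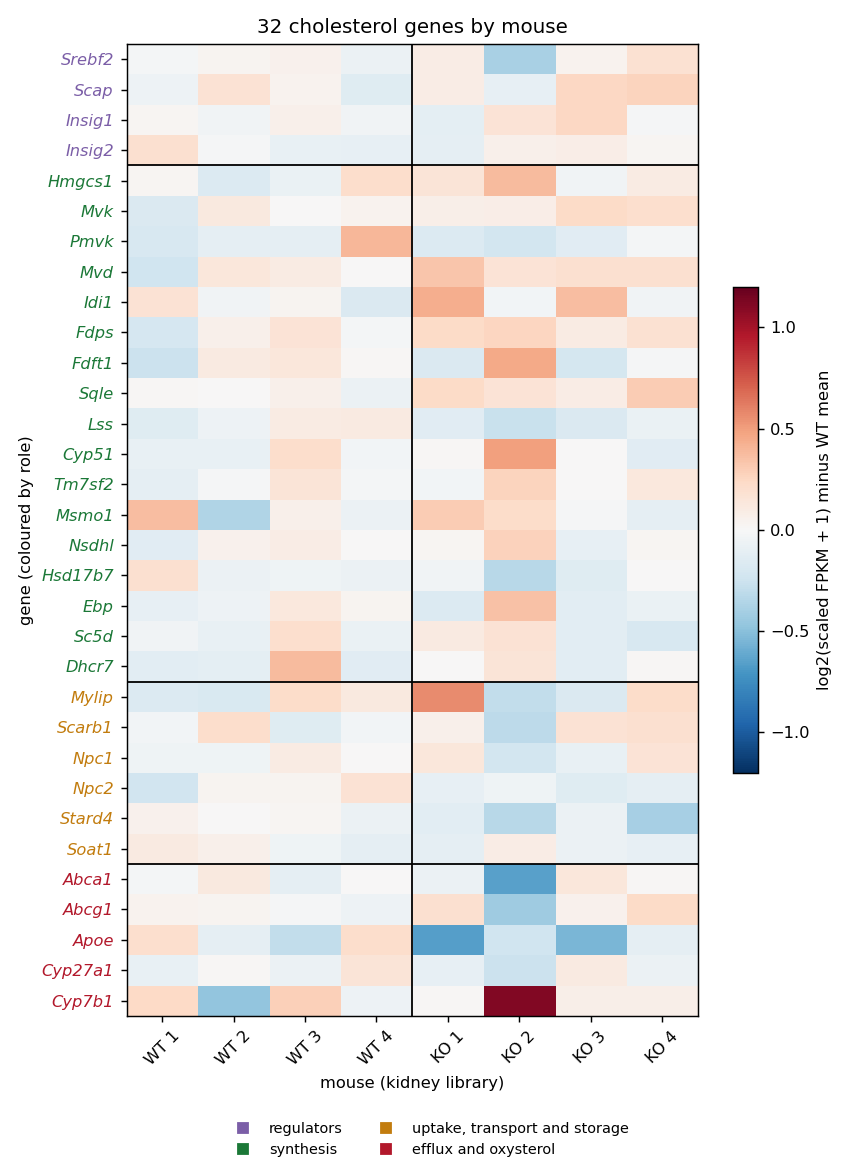
Each cell shows 1 gene in 1 mouse as log2(scaled FPKM + 1) minus the WT mean of that gene, with genes in rows grouped by role and mice in columns. In column KO 2 Cyp7b1 is deep red and Abca1 blue, while the 4 KO columns are pale and of 1 colour for Mvd and Sqle (red) and Stard4 (blue). They are also of 1 colour for Mvk, Fdps and Cyp7b1 (red) and for Pmvk, Lss, Npc2 and Apoe (blue).

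The regulators of synthesis had log2 fold changes from -0.02 to 0.13. Srebf2, which encodes SREBP2, was at 32.1, 31.8, 31.5 and 29.2 FPKM in the 4 WT mice and at 33.6, 21.9, 31.8 and 35.6 in the 4 KO mice. KO replicate 2 was the lowest of all mice, KO replicates 1 and 4 were above every WT mouse, and KO replicate 3 was within the WT range. Its KO minus WT difference on the log2 scale was -0.02 ± 0.12 (SE, with an adjusted p of 0.98 by limma), and 0.10 without KO replicate 2 (adjusted p = 0.58). Scap, the sterol-sensing escort of SREBP2, was at 34.5, 39, 34.5 and 30.7 FPKM in the WT group and 37.2, 30, 41.2 and 42.2 in the KO group. As deposited KO replicate 2 was the lowest, but after scaling WT replicate 4 was, and 2 of the other KO mice were above every WT mouse on both scales. Its log2 fold change was 0.13 ± 0.11 (adjusted p = 0.86), and 0.20 without KO replicate 2 (unadjusted p = 0.0325, limma adjusted p = 0.38).

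Insig1, an INSIG gene that SREBP2 itself activates, read 15, 13.8, 14.5 and 13.6 FPKM in WT and 13.2, 14.8, 17 and 14.2 in KO. The groups overlapped, with KO replicate 3 the highest and KO replicate 1 the lowest. Its log2 fold change was 0.07 with a 95% interval from -0.14 to 0.28. Insig2, the INSIG gene that does not depend on SREBP2 in the same way, had the same WT mean, 14.2 ± 1.92 FPKM, and 14.1 ± 0.784 in KO.

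In the promoters, 24 of the 32 genes matched a RefSeq window (build GRCm38.p6) from 250 bases before to 50 bases after a start site. The windows were searched on both strands for the classical sterol regulatory element, for the looser form TCACNCCAC that it contains, and for the E-box CACGTG, which SREBP proteins can also bind. The classical element was in 0 of these 24 genes and in 0.0999% of all 27025 genes with a window. The looser form was in 1 of 24, Hmgcs1, and in 1.44% of all genes. The E-box was in 6 of 24 (Scap, Insig1, Hsd17b7, Sc5d, Dhcr7 and Abca1) in 8.09% of all genes and in 12.2% of the tested genes with a window. One site is shown for each role that held one, synthesis, regulation and efflux, read 5′ to 3′ on the strand of the gene with the motif in capitals.
Hmgcs1, chr13:119690204-119690232, plus strand: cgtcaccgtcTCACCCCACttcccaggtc
Insig1, chr5:28071301-28071326, plus strand: tgggtgaggtCACGTGgctccggtgg
Abca1, chr4:53160027-53160052, minus strand: gccatgtctcCACGTGctttctgctg
The motifs begin 137, 101 and 147 bases before the start site of the single RefSeq window of Hmgcs1, Insig1 and Abca1. A match describes these letters and does not show binding. The genes without a window in the table were Fdps, Fdft1, Sqle, Scarb1, Npc1, Stard4, Abcg1 and Cyp7b1.

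The 17 enzymes of synthesis covered nearly the whole route from HMG-CoA to cholesterol, and their levels per length differed widely. Hmgcs1, the HMG-CoA synthase that opens the pathway and the gene with the looser element above, was the highest at 118 FPKM in WT. Mvd, Ebp, Cyp51 and Nsdhl followed at 42.1, 40.4, 35.1 and 22.7 FPKM, and Mvd, Ebp and Cyp51 overlapped each other. Msmo1, at 4.28 ± 1.22, and Lss, at 3.69 ± 0.323, were the lowest, and their ranges overlapped too.

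Of the early enzymes, which lead to farnesyl diphosphate, Hmgcs1 was at 124, 105, 108 and 134 FPKM in the WT group and 132, 142, 113 and 126 in the KO group. KO replicate 2 was the highest and the groups overlapped. The log2 fold change was 0.15 ± 0.12 (adjusted p = 0.86), or 0.07 without KO replicate 2. Mvk, mevalonate kinase, averaged 7.34 ± 0.571 FPKM in WT against 8.11 ± 0.69 in KO. Pmvk, the next kinase, was at 7.49 ± 1.62 and 6.57 ± 0.62, where WT replicate 4 alone, at 9.92, was above all other mice.

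Mvd, the decarboxylase that makes isopentenyl diphosphate, was at 36.9, 46.3, 43.9 and 41.4 FPKM in the WT group and 53.7, 43.8, 47.9 and 48.4 in the KO group. As deposited, KO replicate 2 fell inside the WT range and the other 3 KO mice were above it. After scaling between libraries all 4 KO mice were above all WT mice, at 46.8 to 52.6 against 35.1 to 46.1 scaled FPKM. Its log2 fold change was 0.22 ± 0.10 (unadjusted p = 0.0498, limma adjusted p = 0.82), and 0.24 without KO replicate 2 (adjusted p = 0.34). Without WT replicate 1, the lowest mouse, it was 0.14 (adjusted p = 0.95). Idi1, the isomerase of that product, was at 6.11, 4.91, 5.07 and 4.35 FPKM in the WT group and 7.33, 4.58, 6.83 and 4.93 in the KO group. KO replicates 1 and 3 were above every WT mouse, and the other 2 lay within the WT range. Fdps, farnesyl diphosphate synthase, was at 13.5, 15.6, 16.4 and 14.5 FPKM in the WT group and 17.9, 16.8, 16 and 17.2 in the KO group. KO replicate 3 was below the highest WT mouse and the other 3 were above it. Its log2 fold change was 0.19 ± 0.09 (adjusted p = 0.83). Fdps shares up to 26.7% of its annotated exon bases with the annotated gene Gm43738 on the same strand. Its recovered length, 1241 bases, is shorter than the annotated 4208, so how far the sharing affects its reads is uncertain.

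The squalene steps had fold changes of both signs. Sqle, squalene epoxidase and a flux-controlling step, was at 12.2, 11.5, 11.8 and 10.8 FPKM in the WT group and 13.9, 12.1, 12.3 and 14.6 in the KO group. KO replicates 1 and 4 stood above the other mice, while KO replicate 2 was just under the highest WT mouse as deposited. Scaled values did not overlap, at 10.9 to 12 in WT and 12.2 to 14.4 in KO. Sqle had the lowest p of the enzymes, with a log2 fold change of 0.20 ± 0.08 (unadjusted p = 0.0346, limma adjusted p = 0.80), and the value without KO replicate 2 was the same, 0.20 (adjusted p = 0.32).

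Fdft1, squalene synthase, was at 6.41 ± 0.738 FPKM in the WT group and 6.47 ± 1.38 in the KO group. In that gene KO replicate 2, at 8.44, was the highest mouse, and without it the KO mean was 5.81 ± 0.521. The log2 fold change of Fdft1 was 0.02 with all mice and -0.13 without KO replicate 2. Up to 18.3% of its annotated exon bases are shared with Ctsb on the opposite strand, and whether reads were counted by strand is not given in the sources used here. Lss, lanosterol synthase, was at 3.35, 3.48, 3.92 and 4.01 FPKM in the WT group and 3.3, 2.67, 3.15 and 3.46 in the KO group. The groups overlapped with KO replicate 2 lowest, and the log2 fold change was -0.16 ± 0.10 (adjusted p = 0.86).

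Of the later enzymes, which turn lanosterol into cholesterol, 5 of 8 had positive log2 fold changes, beside 47.2% of all genes tested. The values of the 8 ran from -0.13 for Hsd17b7 to 0.10 for Msmo1, with adjusted p-values from 0.86 to 0.99. Without KO replicate 2 those of Cyp51, Nsdhl and Dhcr7 turned negative (-0.04, -0.02 and -0.04). Those of Tm7sf2 and Msmo1 stayed positive (0.03 and 0.06). Cyp51, lanosterol 14-demethylase, was at 35.1 ± 3.1 FPKM in the WT group and 37.1 ± 6.24 in the KO group. KO replicate 2 carried that difference, at 46.2, and the mean of the other 3 KO mice was 34.1 ± 2.05. Ebp, a sterol isomerase, was likewise highest in KO replicate 2, at 48 FPKM, while the other KO mice, at 36.5 to 38.3, were all below the lowest WT mouse, at 38.6, as deposited. After scaling KO replicate 4, at 37.7, was above WT replicate 1, at 37.3. Its log2 fold change turned from -0.01 with all mice to -0.13 without that mouse (adjusted p = 0.51). Dhcr7, the last reductase of the route through 7-dehydrocholesterol, was at 6.85 ± 1.36 and 6.73 ± 0.44, and Sc5d, the desaturase just before it, at 13.2 ± 1.24 and 12.9 ± 1.46. Tm7sf2, Nsdhl and Msmo1, a reductase, a decarboxylating dehydrogenase and a methyl oxidase, had log2 fold changes of 0.09, 0.05 and 0.10. That of Msmo1 was -0.02 without WT replicate 2 and 0.23 without WT replicate 1. Tm7sf2 shares up to 12.1% of its annotated exon bases with Vps51 on the same strand. Its recovered length is 1498 bases against 4403 annotated, so the effect on its reads is uncertain too. Hsd17b7, a sterol ketoreductase, was at 5.65 ± 0.783 FPKM in the WT group and 5.01 ± 0.768 in the KO group.

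**Figure D3:**
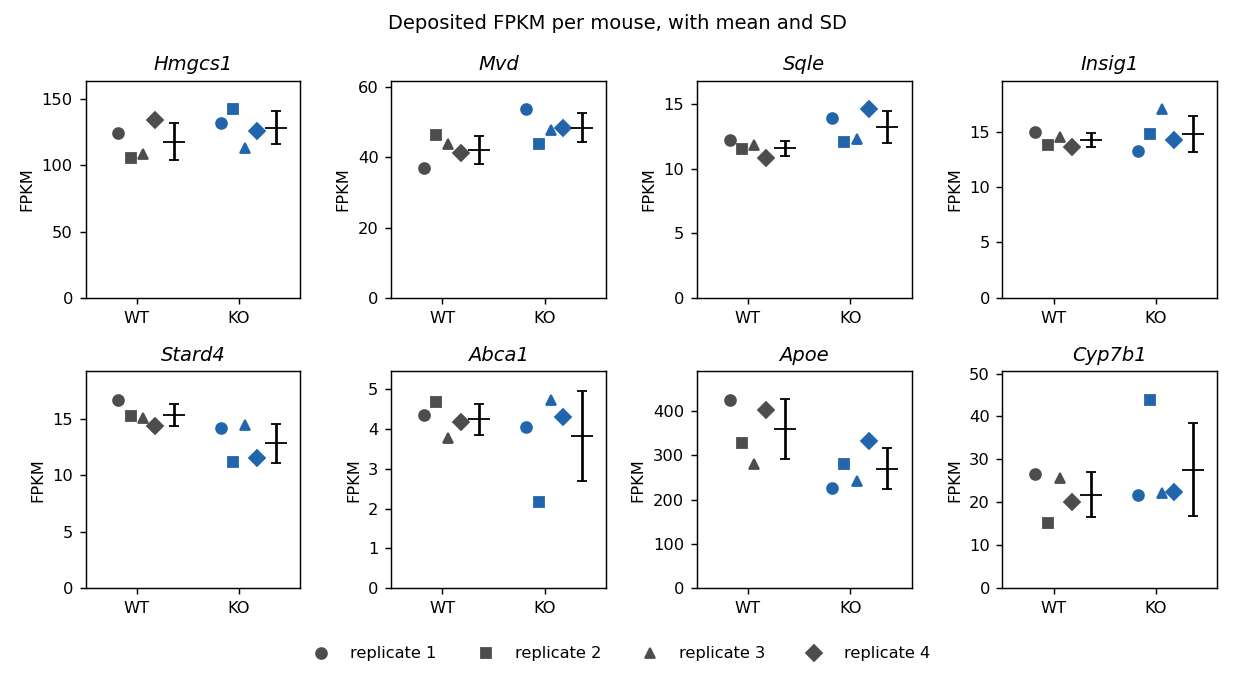
Deposited FPKM of 8 cholesterol genes, 1 panel per gene with the y axis from 0, 1 marker shape per replicate number (which pairs no mice) and the mean with SD beside each group. The means of Mvd and Sqle are higher and those of Stard4 and Apoe lower in KO, with overlapping values, and the square of KO replicate 2 stands alone in Abca1, at 2.17, and in Cyp7b1, at 43.9.

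Among the genes of uptake, transport and storage, Stard4 had the lowest p. It encodes a soluble carrier that moves cholesterol between membranes, and in mouse liver its gene is a sterol-regulated one. It was at 16.7, 15.3, 15.1 and 14.4 FPKM in the WT group and 14.2, 11.2, 14.5 and 11.5 in the KO group. KO replicates 2 and 4 were well below every WT mouse, and KO replicate 3 was just above the lowest one as deposited. Scaled values did not overlap. The log2 fold change was -0.23 ± 0.09, with its 95% interval from -0.44 to -0.03 (unadjusted p = 0.0315, limma adjusted p = 0.80). It was -0.20 without KO replicate 2 (adjusted p = 0.39) and -0.16 with a correction for gene length (adjusted p = 0.71). In all, 3 of the 32 cholesterol genes had scaled values that did not overlap between groups, 2 higher and 1 lower, beside 5.16% of all genes tested (2.33% higher and 2.83% lower). Deposited values of 0 of the 32 did not overlap, beside 5.3% (2.29% higher and 3.01% lower).

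Scarb1, the HDL receptor SR-BI, was at 5.92, 6.88, 5.03 and 5.61 FPKM in the WT group and 6.18, 4.18, 6.63 and 6.85 in the KO group. KO replicate 2 was the lowest mouse and the other 3 lay within the WT range. The log2 fold change of Scarb1 was 0.03 with all mice and 0.14 without KO replicate 2. Mylip, the ubiquitin ligase IDOL that has lipoprotein receptors degraded and is an LXR target, had an SD of 2.34 FPKM in WT and 6.51 in KO. It was at 17.5, 16.4, 21.5 and 20.2 FPKM in the WT group and 28.7, 14, 16.5 and 22.2 in the KO group. KO replicate 1 was the highest of the 8 mice and KO replicate 2 the lowest. The log2 fold change was 0.08 ± 0.18 (adjusted p = 0.94), and 0.2 without KO replicate 2.

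Npc1 and Npc2 pass cholesterol out of the lysosome, one bound in its membrane and the other soluble. Npc2 was at 40 ± 3.67 FPKM in the WT group and 36.5 ± 0.917 in the KO group (adjusted p = 0.87), and Npc1 at 4.68 ± 0.196 and 4.65 ± 0.864. Soat1, which esterifies cholesterol for storage, was the lowest of all 32 genes, at 2.32 ± 0.294 FPKM in WT and 2.17 ± 0.115 in KO. The log2 fold change of Soat1 was -0.05 with the pseudocount of 1 and -0.07 with 0.1.

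Apoe, the apolipoprotein that accepts exported cholesterol and carries it to receptors, was the highest of the 32 genes and had the largest difference. It was at 425, 327, 281 and 403 FPKM in the WT mice and at 227, 280, 241 and 331 in the KO mice. As deposited KO replicates 1 to 3 were below every WT mouse and KO replicate 4 was above 2 of them. After scaling KO replicate 2, at 299, was above WT replicate 3, at 287, and only KO replicates 1 and 3 were below every WT mouse. The mean of 270 ± 46.7 in KO was 25% below that of 359 ± 66.9 in WT. The log2 fold change was -0.39 ± 0.16, with a 95% interval from -0.74 to -0.04 (unadjusted p = 0.0342, limma adjusted p = 0.80). It was -0.44 without KO replicate 2 (adjusted p = 0.35) and -0.45 with the correction for gene length (adjusted p = 0.46). Macrophages also make Apoe. The 8 macrophage markers summed to 107 to 116 FPKM in WT and to 106, 99.4, 138 and 196 in KO replicates 1 to 4, with 0 of the 7 tested markers past the threshold. KO replicate 4 had the highest marker sum and the highest Apoe among KO mice. KO replicate 2 had the lowest marker sum, but its Apoe was above that of KO replicates 1 and 3. The part of macrophages in the Apoe values was not tested.

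The transporters that load cholesterol onto apolipoproteins differed from WT mainly in KO replicate 2. Abca1, which exports to lipid-poor apolipoprotein A-I, was at 4.34, 4.68, 3.76 and 4.17 FPKM in the WT group and 4.04, 2.17, 4.73 and 4.3 in the KO group. Abcg1, which exports to HDL, was at 3.91, 3.71, 3.5 and 3.39 in WT and 4.34, 2.26, 3.76 and 4.47 in KO. In both genes KO replicate 2 was far below the other 7 mice. Abca1 had a log2 fold change of -0.14 ± 0.16 that became 0.03 without that mouse (adjusted p = 0.94), and Abcg1 0.01 ± 0.14 that became 0.16 (adjusted p = 0.49). Abca1 had the greatest recovered length of the 32 genes, 10262 bases, although Npc1 and Lss are longer by annotated exons. With the correction for gene length its log2 fold change was -0.02.

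Cyp27a1 and Cyp7b1 hydroxylate cholesterol and oxysterols on their way to bile acids. Cyp27a1, the mitochondrial sterol 27-hydroxylase, was at 30.3 ± 2.13 FPKM in the WT group and 28.3 ± 3.84 in the KO group (log2 fold change -0.08 ± 0.10, adjusted p = 0.88). Cyp7b1, the oxysterol 7-alpha-hydroxylase, was at 26.5, 15.1, 25.6 and 20.1 FPKM in the WT group and 21.8, 43.9, 22.3 and 22.5 in the KO group. KO replicate 2 was far above the other mice, and the other 3 KO mice lay inside the WT range. Its log2 fold change was 0.32 ± 0.25 (adjusted p = 0.86), and 0.05 without KO replicate 2 (adjusted p = 0.95).

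**Figure D4:**
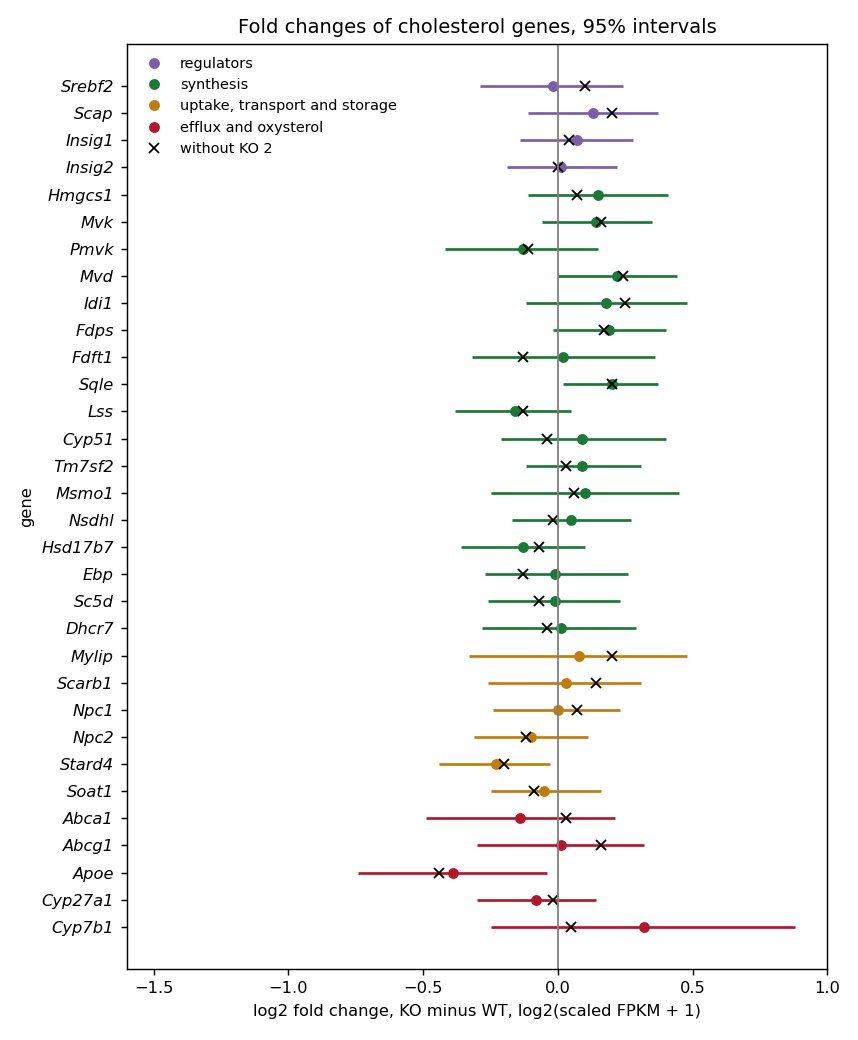
Log2 fold change of each cholesterol gene, KO minus WT, on the log2(scaled FPKM + 1) scale, with dots for all 8 mice, bars for the 95% interval and crosses for the value without KO replicate 2. Sqle has a bar wholly above 0 and Mvd one that starts at 0, while those of Stard4 and Apoe are wholly below 0. Without KO replicate 2 the sign turned for 8 genes, Abca1, Cyp51, Dhcr7, Fdft1, Insig2, Npc1, Nsdhl and Srebf2. The crosses of some others, such as Ebp, Idi1, Scap, Mylip and Scarb1, lie further from 0 than their dots.

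Set side by side, the roles differed little and their order rested on KO replicate 2. The median log2 fold change was 0.09 for synthesis, with 12 of 17 above 0, and 0.04 for the regulators, with 3 of 4 above 0. It was -0.03 for uptake, transport and storage, with 2 of 6 above 0, and -0.08 for efflux and oxysterol genes, with 2 of 5 above 0. Over all genes tested it was -0.01, with 47.2% above 0. Without KO replicate 2 the medians were -0.02 for synthesis (8 of 17 above 0), 0.07 for the regulators (3 of 4), -0.01 for uptake (3 of 6) and 0.03 for efflux (3 of 5), against -0.01 for all genes.

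Per mouse, the mean of the 17 synthesis genes relative to WT was -0.06, -0.04, 0.09 and 0.01 in the WT mice and 0.07, 0.15, -0.01 and 0.03 in the KO mice. KO replicate 2 was the highest and the other 3 KO mice lay within the WT range. For uptake the lowest mean, -0.19, was that of KO replicate 2. For efflux it was that of KO replicate 1 (-0.13, against -0.09 in KO replicate 2). For the regulators it was that of WT replicate 4 (-0.09, against -0.07 in KO replicate 2). The regulator means of KO replicates 3 and 4, 0.15 and 0.12, were above every WT mouse (-0.09 to 0.04), and that of KO replicate 1 was -0.01. With the correction for gene length the medians were 0.03 for synthesis, 0.06 for regulators, 0.05 for uptake and -0.02 for efflux. The spread followed the same mouse. The median coefficient of variation of the 32 genes was 9.27% in WT, 13.6% in KO and 6.71% in the KO mice without replicate 2, beside 8.89%, 15.9% and 7.77% over all genes tested.

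Other genes of the pathway gave a like picture. In 6 lists, 36 genes were measured, 32 of them exceeded the filter, and 0 passed in either direction. Their median log2 fold change was -0.05, with 13 of 32 above 0. This median is given only with KO replicate 2 included. The list means relative to WT in that mouse were -0.41 for lipoprotein receptors, -0.17 for ester hydrolysis and -0.16 for SREBP processing. They were -0.09 for sterol carriers, -0.07 for LXR genes and 0.09 for other mevalonate and sterol enzymes. In the other KO mice the list means lay between -0.10 and 0.14. Deposited values did not overlap for 1 higher gene, Nr1h3, and 3 lower ones, Ggps1, Erlin2 and Lpcat3, beside 5.3% of all genes tested, and those of Lpcat3 overlapped after scaling. The 2 genes of each list with the lowest p are given as FPKM in WT and then KO. Of the other mevalonate and sterol enzymes (6 tested), Ggps1, geranylgeranyl diphosphate synthase, was at 4.26 ± 0.386 and 3.46 ± 0.559 (adjusted p = 0.84), and Cyb5r3, a reductase, at 104 ± 8.45 and 112 ± 4.93. Among 7 genes of SREBP processing and sterol-regulated degradation, Erlin2 was at 42.7 ± 1.63 and 37.5 ± 4.62 (adjusted p = 0.83) and Erlin1 at 29.5 ± 3.48 and 26.1 ± 2.15. Both encode membrane proteins of the endoplasmic reticulum, and in both KO replicate 2 was the lowest mouse.

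Nr1h3, which encodes the receptor LXR-alpha, and its target Lpcat3 led the LXR list (5 tested), which also bears on Abca1, Abcg1 and Mylip as LXR targets. Nr1h3 was at 30.5 ± 0.866 and 33 ± 1.11 FPKM (adjusted p = 0.86), and Lpcat3, a phospholipid acyltransferase, at 55.9 ± 0.418 and 52.3 ± 1.81. Vldlr, at 14.6 ± 0.338 and 13.2 ± 2.71, and Lrp1, at 10.5 ± 1.19 and 10.4 ± 3.63, had the lowest p of 3 lipoprotein receptor genes tested. Stard5, at 46.7 ± 3.07 and 42 ± 2, and Osbp, at 27 ± 1.58 and 24.4 ± 4.2, did so among 8 sterol carriers. Cyp39a1, at 2.29 ± 0.307 and 1.9 ± 0.342, and Hsd3b7, at 3.38 ± 0.275 and 3.12 ± 0.357, did so among 3 genes of ester hydrolysis and oxysterol conversion. As deposited, KO replicate 2 was the lowest mouse in Vldlr, Lrp1 and Osbp. Without it their KO means were 14.5, 12.2 and 26.5 FPKM, so that of Lrp1 lay above the WT mean. KO replicate 2 was also lowest in Lpcat3, Stard5, Cyp39a1 and Hsd3b7, whose KO means stayed below the WT means without it.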

How the data were processed

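Poly-A RNA of 8 mouse kidneys was sequenced, 1 library per mouse, 4 WT and 4 KO by the genotype in the labels. Replicate numbers only name mice. The authors deposited FPKM, taken as such from the values because the header gives no unit. The tools listed, per the submitters' processing notes, are STAR 2.5, HTSeq 0.6.1, CASAVA and DESeq2, and the build is mm10. Roles, annotation release and strand setting: not given in the sources used here. Reads and gene lengths were recovered from the FPKM steps, and all 22945 genes above 0 gave whole reads within 0.002 reads, 5865 of them at the exon length of GENCODE M21 and the others at the smallest length that did so. Intervals of reads cover counting error only.

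FPKM were divided by trimmed-mean-of-M factors computed from those reads (0.3 of log ratios and 0.05 of levels trimmed; factors 0.936 to 1.05) and tested with limma 3.58.1 in R 4.3.3 on log2(scaled FPKM + 1), with trend and robust empirical Bayes and Benjamini-Hochberg adjustment over the 12118 genes with a mean of at least 1 FPKM. FPKM printed are as deposited unless called scaled. The procedure was tested on simulated data. Members and lists were chosen with earlier results of these data known. The rule for named genes was every member, C1qtnf1, and of each other list the genes past the threshold or else the 2 with the lowest p. Of 37 other listed genes, Faxdc2 was not analysed here. Adgre1 was matched by its identifier. Of the 32 genes, 9 share annotated exon bases with another annotated gene, 2 of them on the same strand. Shares on the opposite strand reached 18.3% for Fdft1, 13.2% for Scap and 12.1% for Hmgcs1. Alternatives covered scaling, pseudocount, filter, weights, limma-voom, moderation, leaving out each mouse and, added after the data were seen, a lowess correction for gene length (span 0.3).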

Additional observations from a re-analysis of the deposited data

Results flagged for a closer look

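In 5 of 64 groups of 4 mice, 1 mouse lay far from the other 3 by Dixon's test. Chance gives about 1 in 20 such groups, and over all genes tested the share was 6.04% in WT and 13.2% in KO. Pmvk was at 9.92 FPKM in WT replicate 4 against 6.62 to 6.78 in the other WT mice. Hsd17b7 was at 6.82 in WT replicate 1 against 5.21 to 5.29. Dhcr7 was at 8.87 in WT replicate 3 against 5.99 to 6.39. In KO replicate 2, Ebp was at 48 against 36.5 to 38.3 and Cyp7b1 at 43.9 against 21.8 to 22.5.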

How the results depend on the processing

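In each of 18 alternatives 0 of the 32 cholesterol genes passed, and the direction of 17 genes held in every one. Of the 15 whose sign turned in at least 1 alternative, 8 turned without KO replicate 2. Leaving out 1 mouse moved the median log2 fold change of synthesis between -0.02 and 0.12 and that of efflux and oxysterol genes between -0.15 and 0.03. Array weights gave -0.03 for synthesis and 0.03 for efflux and oxysterol genes. The medians of the other roles stayed within the spread between mice.

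Over all genes, array weights called 59 (30 higher and 29 lower in KO) in place of 5 (2 and 3). Leaving out 1 mouse gave 3 to 21 called genes, 2 to 17 higher and 1 to 12 lower, the most being without KO replicate 2 or KO replicate 3 (21 each). The cause was not tested. No paired analysis was possible because no label ties a KO mouse to a WT mouse. Genes with few reads, such as Pmvk, are limited by depth as well as by the number of mice.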
